A study of Mus musculus with 6 samples.

Results

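The proteins that copy, package and transcribe mitochondrial DNA (mtDNA) are encoded in the nucleus. The mRNA of 10 of their genes was followed in mouse liver tumors labelled wild type (WT) or knockout (KO) for the mitochondrial topoisomerase Top1mt. The members were the rows of the deposited expression table whose gene symbol was Polrmt, Tfam, Tfb2m, Tefm, Tfb1m, Polg, Polg2, Ssbp1, Mgme1 or Rnaseh1. All 10 symbols were found among 30236 rows. All 10 also passed the filter on low values, which kept the 22677 genes whose mean over the 6 libraries lay above the lowest 25%.

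Total RNA was sequenced from 3 liver tumors labelled WT and 3 labelled KO, whose genotype is Top1mt -/- in a knockout mouse line. All mice were male and of the C57BL/6 strain. Every mouse had received the liver carcinogen diethylnitrosamine at day 14 of age and, from week 8, injections of the hepatotoxin carbon tetrachloride for 14 weeks, and tumors were taken at week 22. Values are the log2 expression values that the authors deposited, on which library depth cannot be read, and differences are KO minus WT on that scale. The labels do not say that each tumor came from a separate animal, although a caption of the study calls the tumors independent. The p-values therefore measure the spread between these samples.

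Transcription of mtDNA starts when TFAM bends the promoter DNA and recruits the RNA polymerase POLRMT, which TFB2M helps to open the strands, and TEFM then keeps the polymerase moving. Replication uses an RNA primer made by POLRMT, which the polymerase POLG extends with its accessory subunit POLG2 behind the helicase Twinkle, while SSBP1 covers the exposed single strand and RNASEH1 and MGME1 trim primers and flaps. Top1mt relaxes the supercoils that both processes create, and liver cells carry many mtDNA copies.

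Top1mt itself checks the labels. The WT libraries, in the order of their replicate numbers, had log2 values of 7.71, 5.99 and 8.01, and the KO libraries had 5.58, 6.41 and 6.32. The library labelled WT replicate 2 lay below 2 of the 3 KO libraries, so its Top1mt value goes against its label. WT replicates 1 and 3 lay above all KO libraries. Every KO library also held a Top1mt signal, with a mean of 6.10 (SD 0.46), so the signal was not near absent in any of them. By GENCODE M21, Top1mt shares 4.65% of its exon bases with Gm15945 on the opposite strand. Whether counting kept the strands apart is not given, and 1 value per gene does not show which part of it was read. The difference of Top1mt was -1.13 (SE 0.52, 95% interval -2.34 to 0.07), at an unadjusted p of 0.0611 and an adjusted p of 0.999 by limma. An exact two-sided permutation test gave p = 0.3, where 3 against 3 libraries allow no p below 0.1. Leaving out single libraries moved the difference from -1.76 (without the library labelled WT replicate 2) to -0.75 (without WT replicate 3), and without KO replicate 1 it was -0.87. A second library stood apart in another way: the single gene Gm42418 made up 17.7% of the summed linear values in KO replicate 1 and at most 0.387% in each of the other 5. The members are therefore also given without these 2 libraries, and WT and KO name the labels throughout.

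No gene of the 22677 passed an adjusted p of 0.05 by limma (0%), and 985 genes (4.34%) had an unadjusted p under 0.05, 405 with higher and 580 with lower values in KO. Centring each library on its median turned that split to 535 higher and 443 lower. Among the members, 0 of 10 passed the adjusted threshold and 0 of 10 had an unadjusted p under 0.05. The genotypes overlapped for all 10 members, while 1877 genes (8.28%) had every KO library on one side of every WT library. With 10 members, shares of this size correspond to less than 1 gene, so counts of 0 do not set the members apart from other genes. The median difference of the members was -0.0068, beside -0.015 over all genes tested. 3 members were higher and 7 lower in KO, which became 8 higher and 2 lower after median centring and 6 higher and 4 lower after quantile normalization.

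For every member the difference was smaller than the SD pooled over both genotypes, and for 6 of 10 it was below 0.05 in size. The 95% intervals of all 10 lay within a 2-fold change in either direction, the widest bounds being 1.76-fold lower for Rnaseh1 and 1.58-fold higher for Polg2. The transform behind the deposited log2 values is not named, and one that shrinks differences would make these bounds too narrow. The smallest unadjusted p of any member was 0.454, and each adjusted p was 0.999, by limma. In pieces of tumor, fewer cells of a type and less RNA per cell cannot be told apart.

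**Figure D1:**
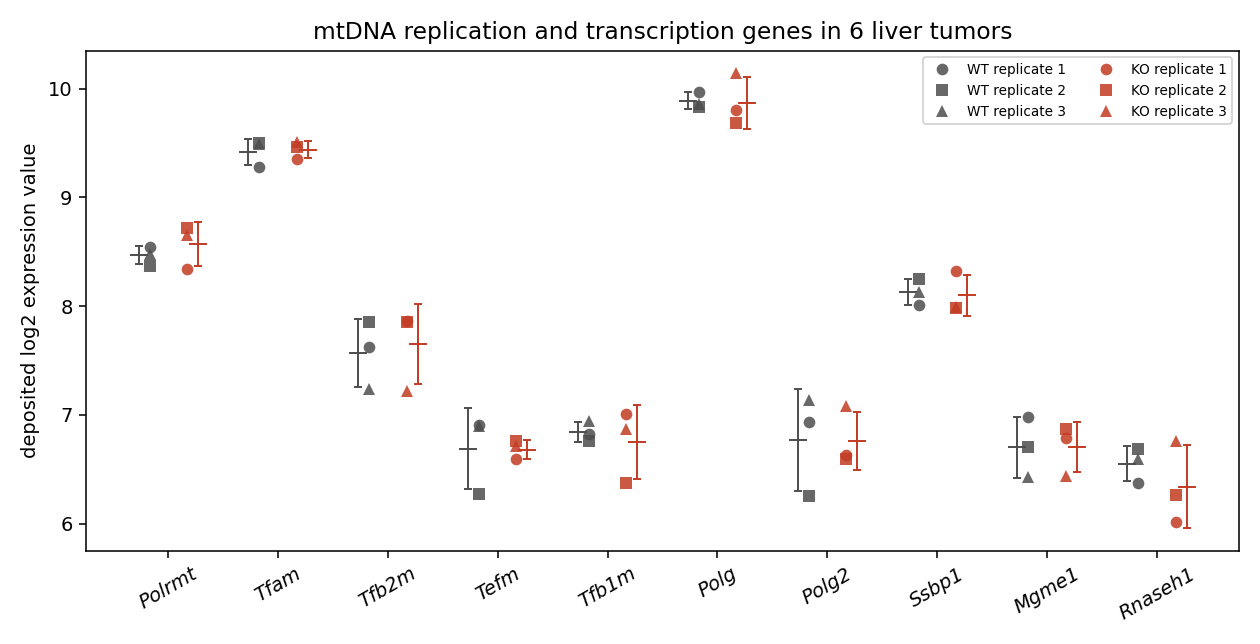
Deposited log2 expression value (vertical axis) of the 10 members in each of 3 WT (grey) and 3 KO (red) liver tumors, 1 point per library with the marker shape giving the replicate number; crossbars show the mean and the bars the SD (n = 3). The genotypes overlap for all 10 genes, and Tfam, from 9.28 to 9.51, has the tightest points.

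Among the transcription genes, the RNA polymerase gene Polrmt (chr10:79736123-79746581, minus strand, GRCm38) had log2 values of 8.54, 8.37 and 8.48 in the WT tumors and of 8.34, 8.72 and 8.65 in the KO tumors, again by replicate number. The KO tumors held both the lowest and the highest value, so the WT tumors lay inside their range. The means were 8.47 ± 0.08 in WT and 8.57 ± 0.20 in KO (SD, n = 3). Their difference was 0.11 (SE 0.15, 95% interval -0.25 to 0.46), at an unadjusted p of 0.508 by limma. Polrmt was the 1 member whose direction did not turn under any of the 13 alternative settings. The settings without trend, with other filters or with the replicate block could not turn it, since they leave the difference at 0.11. Leaving out single libraries moved the difference between 0.034 (without KO replicate 2) and 0.22 (without KO replicate 1).

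Tfam, which both packs mtDNA into nucleoids and activates its promoters (chr10:71225464-71238280, minus strand), had log2 values of 9.28, 9.50 and 9.49 in the WT tumors and of 9.35, 9.46 and 9.51 in the KO tumors. Replicate 1 was the lowest library of each genotype, and the other 4 lay close together. All 6 tumors fell within a 1.17-fold range, the tightest of the 10 members, and the SD of Tfam within genotypes stood at percentile 6.24 among all genes tested. Its difference of 0.019 (SE 0.13) had an interval of -0.28 to 0.32, which runs from 0.82-fold to 1.25-fold.

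Tfb2m, the initiation factor that melts the promoter (chr1:179528055-179546267, minus strand), had log2 values of 7.62, 7.85 and 7.24 in WT and of 7.86, 7.85 and 7.22 in KO. Replicate 3 was the lowest library of both genotypes, and the spread within each genotype exceeded the difference between them, 0.076 (SE 0.25, interval -0.49 to 0.65). Tefm, the elongation factor (chr11:80136678-80142175, minus strand), had log2 values of 6.91, 6.27 and 6.90 in WT and of 6.59, 6.76 and 6.71 in KO. The library labelled WT replicate 2 was lowest, the other WT libraries were highest, and the KO libraries lay between them. The difference was -0.0077 (SE 0.24, interval -0.57 to 0.55), and it was -0.22 without the library labelled WT replicate 2.

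Tfb1m is the relative of Tfb2m that methylates the small ribosomal RNA of mitochondria, a step in building their ribosomes (chr17:3519256-3557781, minus strand). Its log2 values were 6.82, 6.76 and 6.94 in WT and 7.01, 6.37 and 6.87 in KO. KO replicate 2 lay below all other libraries and KO replicate 1 above them. The difference was -0.089 (SE 0.23, interval -0.63 to 0.45), and without KO replicate 2 it was 0.10.

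Among the replication genes, Polg encodes the catalytic subunit of the mtDNA polymerase (chr7:79446231-79466362, minus strand). Its log2 values were 9.97, 9.83 and 9.86 in WT and 9.80, 9.68 and 10.14 in KO. The KO tumors again held both ends of the range, with replicate 3 highest and replicate 2 lowest. The means were 9.89 ± 0.08 in WT and 9.87 ± 0.24 in KO (SD, n = 3), a difference of -0.015 (SE 0.15, interval -0.37 to 0.34).

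Polg2, the accessory subunit that holds the polymerase on its template (chr11:106768253-106779537, minus strand), had log2 values of 6.93, 6.25 and 7.14 in WT and of 6.63, 6.59 and 7.08 in KO. It had the widest range of the 10 members, 1.86-fold over the 6 tumors, and both of its ends were WT libraries. As for Tefm, the lowest value came from the library labelled WT replicate 2. The difference was -0.0059 (SE 0.29, interval -0.67 to 0.66), and -0.27 without that library.

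Ssbp1, the single-strand binding protein of mtDNA (chr6:40471352-40484700, plus strand), had log2 values of 8.01, 8.25 and 8.13 in WT and of 8.32, 7.98 and 7.99 in KO. KO replicate 1 was the highest library, and the other KO libraries were the lowest, close below WT replicate 1. The difference was -0.031 (SE 0.16, interval -0.41 to 0.35), and it was -0.14 without KO replicate 1.

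Mgme1, the exonuclease that trims single-stranded ends left by replication (chr2:144270663-144281227, plus strand), had log2 values of 6.98, 6.70 and 6.43 in WT and of 6.79, 6.87 and 6.44 in KO. Replicate 3 was again lowest in both genotypes, as for Tfb2m. The group means were nearly equal, with a difference of -0.0016 (SE 0.24, interval -0.55 to 0.55).

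Rnaseh1, which removes RNA paired with DNA (chr12:28649602-28659589, plus strand), had log2 values of 6.37, 6.69 and 6.59 in WT and of 6.01, 6.26 and 6.76 in KO. It had the largest difference of the 10, although its highest value was in KO replicate 3 and only KO replicates 1 and 2 lay below all WT libraries. The means were 6.55 ± 0.16 in WT and 6.34 ± 0.38 in KO (SD, n = 3). The difference was -0.21 (SE 0.26, interval -0.82 to 0.40). It was -0.42 without KO replicate 3 and -0.042 without KO replicate 1, so single libraries moved it across this range.

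With both the library labelled WT replicate 2 and KO replicate 1 left out, 2 libraries remained per genotype, and 3 members (Polrmt, Ssbp1 and Tefm) no longer overlapped, beside 33.6% of all genes tested. The largest of the 10 differences in size was then -0.26, for Tfb1m, and all 10 intervals stayed within a 2-fold change. Rnaseh1 turned to 0.028, while Polrmt was 0.18, Tfb2m 0.11 and Tfam 0.10. Polg2 was -0.20, Tefm -0.17, Ssbp1 -0.083, Mgme1 -0.047 and Polg -0.0065. Across all 13 settings the smallest adjusted p of any member was 0.89 by limma.

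The members were also read together in each tumor, without a test. A mean over them can hide members that go opposite ways. The mean deviation of the 10 members from their own means ran from -0.049 in the library labelled WT replicate 2 to 0.0485 in WT replicate 1. KO replicates 1 and 3 each held the highest value of 3 members, and KO replicate 1 also held the lowest value of 2. KO replicate 2 held the lowest value of 3 members and the highest of 1, with a mean deviation of -0.0414. The library labelled WT replicate 2 held the lowest value of 2 members and the highest of 0.

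Levels of different genes were compared per kilobase of the longest principal transcript. On this scale the log2 level averaged 7.37 for Tfam, 6.91 for Polg and 6.61 for Polrmt. Tfb2m at 6.32, Tfb1m at 6.31, Tefm at 6.30 and Polg2 at 6.18 followed closely, and Ssbp1 at 5.98, Rnaseh1 at 5.90 and Mgme1 at 5.20 came last. The 6 Tfam libraries, from 7.22 to 7.45, lay above all Polg libraries, from 6.71 to 7.17, whereas every other pair of neighbours in the order overlapped. The highest and lowest member, Tfam and Mgme1, stood 4.5-fold apart on this scale. That span depends on the length chosen: over the union of all exons, log2 levels ran from 7.28 for Tfam to 4.64 for Polg2, which is wider. The place of Ssbp1 depends on its annotated transcripts: its principal transcripts run from 933 to 4398 bases, and with the shortest its level was 8.21, above Tfam. Over the union of all exons, Tfam, Polg and Polrmt kept ranks 1, 2 and 3, while Tfb1m moved from rank 5 to 9 and Polg2 from rank 7 to 10.

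Partner genes were also compared within each library, where scaling between libraries plays no part. Polg minus Polg2 was 3.05, 3.58 and 2.72 in the WT tumors and 3.17, 3.09 and 3.06 in the KO tumors, a change in mean of -0.0088 with an exact permutation p of 1. The KO values lay close together inside the WT range. Polrmt minus Tefm came to 1.63, 2.11 and 1.58 in the WT tumors and to 1.76, 1.96 and 1.95 in the KO tumors, a change of 0.11 (exact p = 0.6). The library labelled WT replicate 2 was highest for both of these pairs, since its Polg2 and Tefm were low.

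Tfb1m minus Tfb2m came to -0.80, -1.09 and -0.30 in the WT tumors and to -0.85, -1.48 and -0.35 in the KO tumors, a change of -0.17 (exact p = 0.7). Replicate 3 of each genotype was nearest to zero because Tfb2m was low there. Tfam minus Ssbp1, the pair that coats double-stranded and single-stranded mtDNA, came to 1.27, 1.25 and 1.36 in the WT tumors and to 1.03, 1.49 and 1.51 in the KO tumors, a change of 0.050 (exact p = 0.9). The KO values lay on both sides of the WT values. Over the 4 pairs the adjusted p was 1 for each, and these exact two-sided tests allow no p below 0.1. When single libraries were left out, Polg minus Polg2, Tfb1m minus Tfb2m and Tfam minus Ssbp1 turned in direction. Polrmt minus Tefm then ran from 0.02 to 0.28.

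The promoter sequences of the members were searched for 3 short motifs, which their choice did not use. RefSeq windows (GRCm38.p6) of 250 bases before to 50 after RefSeq's gene start were at hand for 9 of the 10 members; Rnaseh1 had none. The letters CCGGAAG, the core bound by ETS factors such as the GABP complex, stood on either strand in 6 of 9 member windows and in 8.86% of all 32851 promoter windows. Each match is printed in a 30-base stretch read on the gene's strand, with the match in capitals (CTTCCGG where it is on the opposite strand):
Polrmt, chr10:79746607-79746636: accctaagagcgCTTCCGGcagtcgcagaa
Tfam, chr10:71238074-71238103: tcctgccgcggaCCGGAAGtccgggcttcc
Tefm, chr11:80142145-80142174: gagcacacgaaaCCGGAAGttgaggaggaa
Polg, chr7:79466294-79466323: ggaggacctcacCCGGAAGtccctctgcac
Polg2, chr11:106779549-106779578: gcgggtgacgctCTTCCGGgggcgtggtct
Ssbp1, chr6:40471409-40471438: gggctccgtgcgCCGGAAGcgagccgctgg
All 6 matches began between 9 bases (Tefm) and 47 bases (Tfam and Ssbp1) before the RefSeq start, which can differ from the GENCODE extents given for the genes: the matches of Tfam, Tefm, Polg and Ssbp1 lie inside those extents, and the matches of Polrmt and Polg2 lie before them. The NRF1 letters GCGCANGCG were in 2 of 9 windows (Polrmt and Tfb2m) beside 6.25% of all windows, and the YY1 letters AANATGGCG in 1 of 9 (Mgme1) beside 2.38%. No match overlapped one of another motif, and the Tfb1m window held none of the 3. A match is a description of the sequence and says nothing of binding in these tumors.

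The genes of the factors named by these motifs had overlapping values in both genotypes. Gabpa, the DNA-binding subunit of GABP, had log2 values of 10.07, 10.24 and 9.98 in WT and of 10.01, 10.10 and 10.10 in KO, a difference of -0.025 (SE 0.13). Nrf1 had values of 8.33, 8.78 and 8.42 in WT and of 8.37, 8.45 and 8.81 in KO, a difference of 0.032 (SE 0.19). Both were singled out after their values were seen, as was Yy1, with a difference of 0.075 (SE 0.14), and the genotypes overlapped for all 3. When single libraries were left out, Gabpa ran from -0.083 to 0.048 (the latter without the library labelled WT replicate 2), Nrf1 from -0.10 (without KO replicate 3) to 0.17 (without the library labelled WT replicate 2) and Yy1 from 0.0094 to 0.15, so the directions of Gabpa and Nrf1 turned.

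4 members share exon bases with a gene on the opposite strand, by GENCODE M21: Polg with Fanci (8.57% of its exon bases), Mgme1 with Snx5 (6.15%), Tfb1m with Tiam2 (3.93%) and Polg2 with Milr1 (3.03%). The kit marked strand, but whether counting used it is not given in the sources used here, so reads from these stretches cannot be told apart.

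Beside the members, 54 other genes of mtDNA maintenance and expression were followed, in lists for replication and repair, nucleotide supply, transcription termination, RNA processing and nuclear regulators. All 54 were tested, and 0 passed an adjusted p of 0.05 by limma. 3 genes (5.56%) had an unadjusted p under 0.05, 2 higher and 1 lower, and 4 genes (7.41%) did not overlap between genotypes, so both shares were near those of all genes, 4.34% and 8.28%. 24 genes were higher and 30 lower, with a median difference of -0.022. Genes encoded in mtDNA itself were looked for by the symbol prefix mt-. Among the genes tested 0 had it, and genes encoded in mtDNA were not analysed here.

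**Figure D2:**
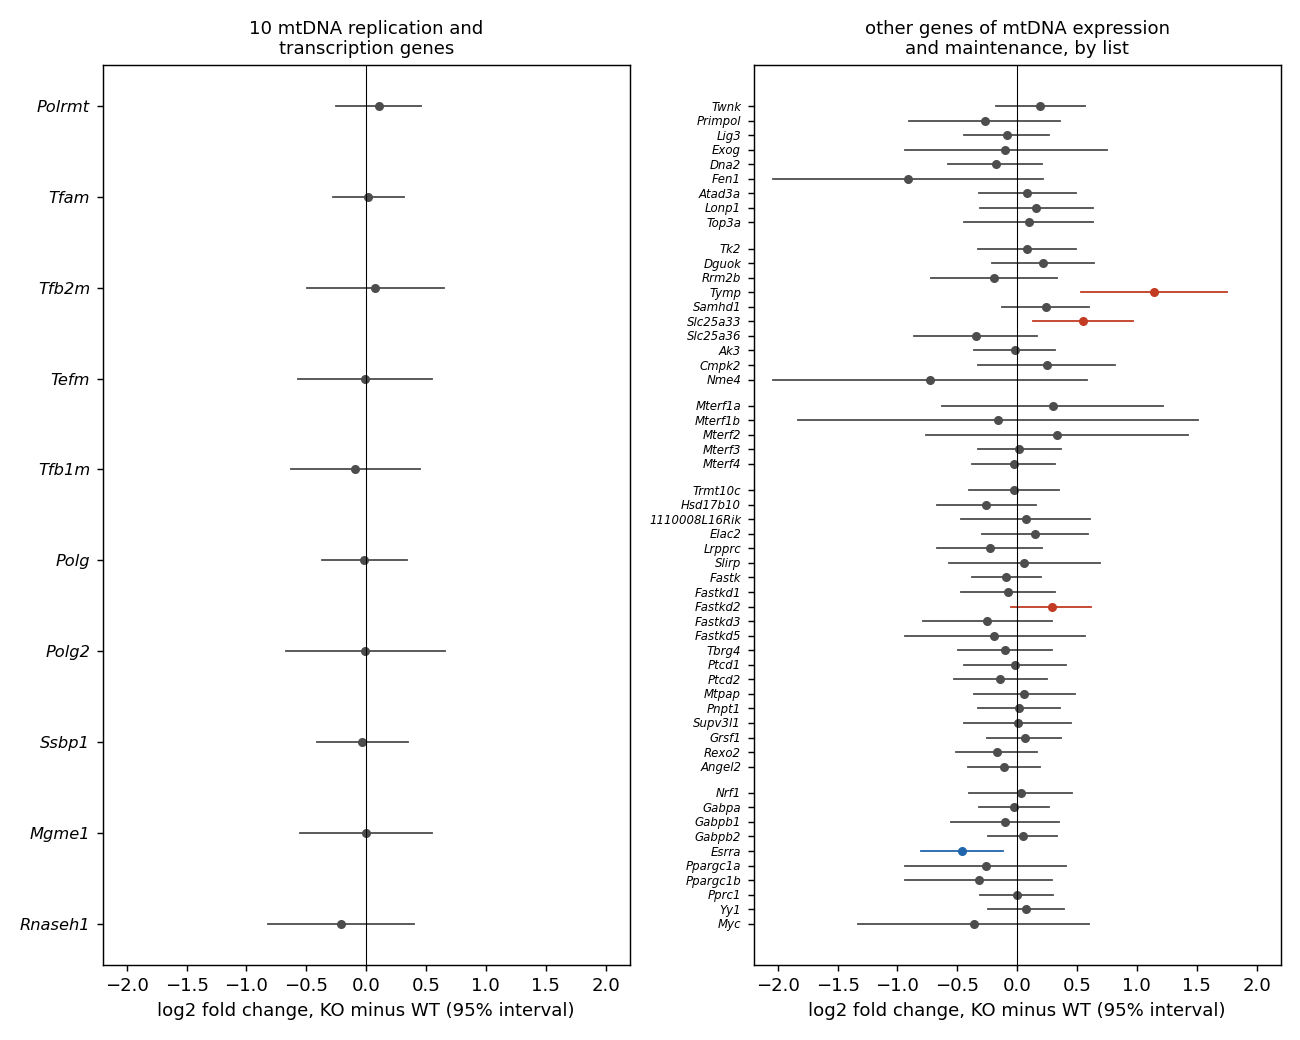
KO minus WT log2 fold change (horizontal axis) with its 95% interval for the 10 members (left) and for 54 other genes of mtDNA maintenance and expression grouped by list (right), from limma on 3 against 3 libraries; red and blue mark genes whose KO libraries all lie above or all below the WT libraries. No member is colored, and 4 of the 54 genes are.

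Replication and repair held 9 genes, with 0 at an unadjusted p under 0.05 and a median difference of -0.085. Twnk, the Twinkle helicase that works with Polg, had log2 values of 8.60, 8.70 and 8.29 in WT and of 8.66, 8.88 and 8.62 in KO. The genotypes overlapped, with a difference of 0.19 (SE 0.16, interval -0.18 to 0.57) that ran from 0.074 without WT replicate 3 to 0.28 without the library labelled WT replicate 2. Twnk shares 12.6% of its exon bases with Mrpl43 on the opposite strand. Fen1, a flap nuclease shared with the nucleus, had the smallest p of this list, with a difference of -0.91 (SE 0.49, unadjusted p of 0.0994 by limma) at a low mean of 2.19, and it ran from -1.18 without WT replicate 3 to -0.58 without KO replicate 3.

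The 10 nucleotide supply genes included both of the genes higher in KO at an unadjusted p under 0.05. Tymp, the thymidine phosphorylase that breaks down thymidine, had log2 values of 8.35, 8.52 and 8.02 in WT and of 8.91, 9.47 and 9.93 in KO. Every KO tumor lay above every WT tumor, with a difference of 1.14 (SE 0.26, interval 0.53 to 1.75), an unadjusted p of 0.00266 and an adjusted p of 0.941 by limma. Slc25a33, a pyrimidine nucleotide carrier of the inner membrane, had log2 values of 7.35, 7.26 and 7.28 in WT and of 7.67, 7.76 and 8.12 in KO. It too was higher in 3 of 3 KO tumors, by 0.55 (SE 0.18, unadjusted p of 0.0162 and adjusted p of 0.999 by limma). Neither passed the test over all genes. Leaving out single libraries kept Tymp between 0.89 and 1.40 and Slc25a33 between 0.41 and 0.64, where the unadjusted p of Slc25a33 by limma reached 0.0546 without KO replicate 3. The median difference of the list was 0.15.

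The termination family (5 genes) and the RNA processing genes (20) held 0 genes at an unadjusted p under 0.05, with median differences of 0.019 and -0.050. Mterf2 differed by 0.33 (SE 0.47) and Mterf1a by 0.30 (SE 0.40), and Mterf1a has a close copy, Mterf1b, and the study's methods kept uniquely mapped reads, so reads that match both copies may be missing from its value. Mterf1a ran from 0.0089 without KO replicate 1 to 0.53 without KO replicate 2, and Mterf2 was -0.19 without the library labelled WT replicate 2. Fastkd2, an RNA-binding protein needed for mitochondrial ribosomes, had log2 values of 7.87, 8.14 and 8.03 in WT and of 8.27, 8.36 and 8.26 in KO. These did not overlap, with a difference of 0.29 (SE 0.15, unadjusted p of 0.0863 by limma). Hsd17b10, a subunit of mitochondrial RNase P, differed by -0.26 (SE 0.18). Without KO replicate 1 it differed by -0.42 (interval -0.78 to -0.05, unadjusted p of 0.0325 by limma), and without KO replicate 2 by -0.12.

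Of the 10 nuclear regulators, 1 had an unadjusted p under 0.05. Esrra, a nuclear receptor that drives mitochondrial genes with PGC-1 coactivators, had log2 values of 8.72, 8.85 and 8.77 in WT and of 8.14, 8.50 and 8.33 in KO. All 3 KO tumors lay below all WT tumors, with a difference of -0.46 (SE 0.15, interval -0.80 to -0.12), an unadjusted p of 0.0148 and an adjusted p of 0.999 by limma. Ppargc1b, one of those coactivators, differed by -0.32 (SE 0.27) with overlapping genotypes, and ran from -0.56 without KO replicate 2 to -0.12 without KO replicate 3. Without the library labelled WT replicate 2 and KO replicate 1, Esrra differed by -0.33, at an unadjusted p of 0.0762 by limma. The list's median difference was -0.063.

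Marker lists were read to describe the tissue. All 6 libraries were from tumors, with no other liver beside them, so the lists cannot check the tumor label. Hepatocyte markers were high, led by Alb with a mean log2 value of 20.74, and Scd2 at 12.75 and Mki67 at 10.43 led the tumor and proliferation lists. Col3a1 at 12.22, Stab2 at 11.56 and Cd5l at 11.13 led the fibroblast, endothelial and macrophage lists, while the T cell list was low, with Cd8a at 3.92 leading it. Markers of several cell types were present, and 0 genes of these lists passed an adjusted p of 0.05 by limma. At an unadjusted p under 0.05, the endothelial list held 1 gene higher in KO and the tumor, proliferation and fibroblast lists 1 lower gene each, while the hepatocyte, macrophage and T cell lists held 0. By direction alone, 6 of 7 tumor markers were lower in KO, with a median difference of -0.68 that ran from -0.83 to -0.44 when single libraries were left out. The tumor tally became 5 lower and 2 higher without KO replicate 2 or without KO replicate 3. The 5 endothelial markers were all higher (median 0.16, from 0.057 without KO replicate 3 to 0.23). That tally also rested on single libraries. It became 3 higher and 2 lower without KO replicate 3, and 4 higher and 1 lower without WT replicate 3 or without KO replicate 2. The fibroblast list rested on single libraries: 5 of 6 markers were lower (median -0.40), but without KO replicate 1 only 1 was lower (median 0.17), and without WT replicate 1 the list split into 3 and 3 (median -0.021).

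The bile duct list held 2 of 5 genes lower in KO at an unadjusted p under 0.05, Krt19 and Krt7, both singled out after their values were seen. Krt19 had log2 values of 6.11, 4.75 and 6.93 in WT and of at most 4.38 in KO, which did not overlap, with a difference of -2.68 (SE 0.69). Krt7 had log2 values of 6.23, 5.35 and 6.04 in WT and of 2.57, 5.42 and 3.06 in KO, which overlapped. Of the other 3 genes, Epcam differed by -1.19 (SE 0.56) without overlap, while Sox9 differed by 0.15 (SE 0.44) and Spp1 by 0.045 (SE 0.35). The list's median difference was -1.19 and ran from -1.51 without the library labelled WT replicate 2 to -0.64 without WT replicate 3. Sox9 and Spp1 each turned below 0 when certain single libraries were left out. The log2 of the summed linear values of this list was 12.62, 12.16 and 11.58 in the WT tumors and 12.03, 11.70 and 12.58 in the KO tumors. It was set mostly by Spp1, the most abundant gene of the list at 12.02. These sums overlapped between genotypes, and no gene of the list was near 0, the lowest mean being 4.59 for Krt19. The part of cell makeup in the values of Tymp, Slc25a33 and Esrra was not tested.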

How the data were processed

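RNA from 3 liver tumors labelled WT and 3 labelled KO (Top1mt -/-) was analysed. The table deposited by the authors gives a log2 value for each gene and library. The transform is not named in the sources used here, and depths are unknown. For the steps before, the study's methods and the submitters' processing notes both name Trimmomatic 0.36, Subread and DESeq2. The methods name BWA and the genome Mm 8, while the notes name STAR 2.5.1 and GRCm38, a difference that could not be settled. The 3 columns without a name hold a few cells of the authors' own comparisons and were not used.

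Genotypes were compared with limma 3.58.1 (R 4.3.3; lmFit, eBayes with trend, Benjamini-Hochberg over 22677 genes), since the values were not counts. Genes whose mean lay in the lowest 25% were left out. Partner pairs were tested by exact two-sided permutation, with 20 regroupings. The code was tested on simulated data. Named genes were the 10 members, Top1mt, Twnk, the 2 genes of smallest unadjusted p in each wider list, any past the adjusted threshold, and the most abundant gene of each marker list, of which 1 is not reported here. Members and lists were chosen with earlier results of these data known. Gene positions came from GENCODE M21 and promoter windows from RefSeq, read with Python 3.11.15. Alternatives were other normalizations, filters, no trend, a replicate block, and libraries left out.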

Additional observations from a re-analysis of the deposited data

How the results depend on the processing

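Of 360 values recomputed under 13 alternatives, 313 were the same, 39 turned in direction and 8 moved. A difference was the same if it kept its direction and side of the threshold. A count was the same if it stayed similar, and a median if it moved by less than the spread between replicates. Part of the 313 was fixed in advance. Changes of trend, filter or block cannot turn a gene's difference, and the exact pair tests cannot reach a p under 0.05. No alternative brought a member to an unadjusted p under 0.05 by limma; the smallest was 0.153. The count of genes past an adjusted p of 0.05 by limma was 4 with no filter on low values (1700049E15Rik, Gm14130, Gm25081 and Gm26962) and ran from 0 to 1 when single libraries were left out (Prom1, without KO replicate 1). These 5 genes are named after their values were seen. The smallest adjusted p of each alternative ran from 0.0189 to 0.999 by limma. The count of members that do not overlap ran from 0 to 3 when single libraries were left out: 1 without the library labelled WT replicate 2 (beside 18.3% of all genes), 2 without KO replicate 1 (21.5%) and 3 without KO replicate 3 (15.9%). It was 3 without the library labelled WT replicate 2 and KO replicate 1 together. The median difference of the members ran from -0.03 to 0.05 with single libraries left out and was 0.048 after median centring. That centring also turned Polg to 0.04, Polg2 to 0.048, Ssbp1 to 0.023, Mgme1 to 0.053 and Tefm to 0.047, and quantile normalization turned Polg2 to 0.03, Mgme1 to 0.026 and Tefm to 0.026. Without both doubtful libraries, Polrmt minus Tefm was 0.35, and Polg minus Polg2 turned to 0.19, Rnaseh1 to 0.028 and Mterf2 to -0.041. When single libraries were left out, Tfam ran from -0.053 to 0.064, Tfb1m from -0.22 to 0.10, Tfb2m from -0.088 to 0.29, Polg from -0.15 to 0.083, Polg2 from -0.27 to 0.18, Ssbp1 from -0.14 to 0.029, Mgme1 from -0.14 to 0.14, Tefm from -0.22 to 0.10 and Mterf2 from -0.19 to 0.67. The pairs ran from -0.21 to 0.22 for Polg minus Polg2, from -0.44 to 0.13 for Tfb1m minus Tfb2m, from 0.02 to 0.28 for Polrmt minus Tefm and from -0.035 to 0.21 for Tfam minus Ssbp1. The median differences of the wider lists ran from -0.16 to 0.014 for replication and repair, from 0.074 to 0.18 for nucleotide supply, from -0.0063 to 0.068 for termination, from -0.082 to -0.028 for RNA processing and from -0.15 to 0.0018 for nuclear regulators. The cause of these turns was not tested, beyond the fewer samples that leaving out a library brings. With the replicate block, 0 genes passed an adjusted p of 0.05 by limma and 912 had an unadjusted p under 0.05. Libraries of the same number had correlated deviations of -0.123, -0.0759 and 0.0520, and were not taken as a pairing. Fen1 was not tested under the filter at the median. With 3 libraries per genotype and depths unknown, the 95% intervals of the members leave room for differences in either direction.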
